A study of Mus musculus with 21 samples.

Results

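The intervals described here are the annotated 3′ ends of transcripts that flank the Lmna gene on mouse chromosome 3. They lie between 84.4 and 92.3 Mb in the mm39 genome, on either strand, outside the stretch from 88.388 to 88.418 Mb that holds Lmna. Of intervals that overlapped on one strand, the one with most reads was kept, which left 769 intervals out of 121259 kept in the whole table. No read fell on 317 of the 769, and 215 had enough reads to be tested. The window was set by position, with earlier results of these data known. The question was whether RNA levels or T>C shares near the floxed gene differed between Lmna F/F and Lmna +/+ hearts.

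Lmna encodes lamin A/C, a filament protein that lines the inside of the nuclear envelope, and loss of lamin A/C from heart muscle cells causes cardiomyopathy. A floxed allele carries loxP sites, between which Cre recombinase cuts the DNA out. Floxed alleles are usually built in embryonic stem cells, and a stretch of the stem cells' chromosome around the target travels with the allele through breeding. In the RefSeq table of another build (GRCm38.p6), the genes next to Lmna are in order Sema4a, Slc25a44, Pmf1 and Bglap on the lower-coordinate side. Sema4a encodes a membrane-bound semaphorin, and Bglap encodes osteocalcin, a bone matrix protein. On the other side the order is Mex3a, an RNA-binding protein gene, then Rab25, a small GTPase gene, Lamtor2, which encodes a subunit of the lysosomal Ragulator complex, and Ubqln4, a ubiquilin gene. The deposited transcript IDs matched 0 entries of that table, so intervals are given by mm39 position and by distance from the middle of the Lmna stretch, and no gene name is attached to them.

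RNA came from the left ventricular free wall of 21 adult mice. Of these, 6 were Lmna F/F with the Uprt Tg/0 transgene (4 females, 2 males) and 8 were Lmna +/+ with Uprt Tg/0 (4 females, 4 males). A further 4 were Lmna F/F with no Uprt transgene (2 females, 2 males), and 3 were Lmna +/+ with no Uprt transgene, all male. All 21 were Myh6MCM Tg/0, which adds a tamoxifen-inducible Cre under the cardiomyocyte promoter of Myh6. All had tamoxifen at 6 to 8 weeks of age on 4 days, and all had 4-thiouracil 2 weeks later, 6 h before the heart was taken. Deletion is therefore meant for cardiomyocytes, while other cells of the ventricle keep Lmna. Uprt, uracil phosphoribosyltransferase, lets cells build 4-thiouracil into new RNA, and iodoacetamide makes that base read as a C in place of a T. The T>C share is the percentage of an interval's reads with a T read as C, whether from the label or from another source. The sources used here do not give the strain background, the origin of the floxed allele or the deleted exons, and the tissue's markers could not be checked without gene names.

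The libraries held 25975911 to 51007428 reads on kept intervals, of which 1125790 to 2421214 carried a T>C conversion. Levels are given as CPM, reads scaled to library size in the usual unit, with TMM-scaled library sizes. The flanking intervals took 0.568 ± 0.040% of all reads in Lmna F/F mice with Uprt and 0.542 ± 0.030% in Lmna +/+ mice with Uprt (SD, n = 6 and 8). Without Uprt they took 0.564 ± 0.053% in Lmna F/F mice and 0.566 ± 0.010% in Lmna +/+ mice (SD, n = 4 and 3). The median T>C share of the flanking intervals was 4.86 ± 0.75% in Lmna F/F mice with Uprt and 4.95 ± 0.61% in Lmna +/+ mice with Uprt. In mice without Uprt that median stood at 2.31 ± 0.50% in Lmna F/F mice and 2.10 ± 0.36% in Lmna +/+ mice. In bulk tissue, fewer cells of a type and less RNA per cell cannot be told apart. Mice 1 and 2 of the Lmna F/F group without Uprt stood apart from the other mice of that group at several intervals below. All-read calls without Uprt at flanking intervals of at least 1 CPM are therefore also given without them. For Lmna itself and for T>C shares, values without these mice are not given.

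Lmna itself held 2 kept intervals, and they behaved differently. The 92-base interval at chr3:88390512-88390603 had 9.85 to 22.7 CPM in Lmna F/F mice with Uprt (median 16.6) and 29.4 to 50.04 CPM in Lmna +/+ mice with Uprt (median 42.3). Without Uprt it had 27.5, 19.1, 7.44 and 13.7 CPM in Lmna F/F mice and 40.9, 45.2 and 39.2 CPM in Lmna +/+ mice. Every Lmna F/F mouse lay below every Lmna +/+ mouse. Reads of this interval fell by 1.28 ± 0.17 on the log2 scale with Uprt and by 1.08 ± 0.24 without (log2 fold change ± SE, edgeR quasi-likelihood test, adjusted p = 4.8e-05 and 0.0086). At the other interval, chr3:88388455-88389380, the ranges overlapped, with log2 fold changes of -0.28 ± 0.16 with Uprt and -0.17 ± 0.23 without (edgeR, adjusted p = 0.46 and 0.80). Whether either interval lies inside the deleted part is not stated, so the second one may check nothing.

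The 4 measured intervals nearest to Lmna on each side lay within about 100 kb, and 1 of these 8 differed between Lmna genotypes. On the lower-coordinate side, the intervals at 59.4, 66.5, 84.0 and 101 kb had log2 fold changes in mice with Uprt of 0.32 ± 0.25, 0.23 ± 0.63, -0.03 ± 0.12 and 0.10 ± 0.15. None of these 4 passed the threshold in either comparison (edgeR, lowest adjusted p = 0.27). On the higher-coordinate side, the intervals at 43.6, 73.3 and 92.5 kb had log2 fold changes in mice with Uprt of 0.93 ± 0.45, 0.05 ± 0.11 and 0.13 ± 0.11, again with no call (edgeR, lowest adjusted p in either comparison = 0.054). That lowest value belonged to the interval at 92.5 kb in mice without Uprt, with 41.3, 35.7, 27.6 and 31.5 CPM in Lmna F/F mice against 21.6, 20.7 and 26.4 CPM in Lmna +/+ mice.

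The exception was the interval at chr3:88457126-88457254 on the minus strand, 54.2 kb from the middle of the Lmna stretch (transcript ENSMUST00000029698.15). It had 4.57 to 5.91 CPM in Lmna F/F mice with Uprt (median 5.04) and 6.23 to 10.3 CPM in Lmna +/+ mice with Uprt (median 9.02). Without Uprt it had 4.58, 2.17, 4.01 and 4.46 CPM in Lmna F/F mice and 8.00, 6.97 and 7.74 CPM in Lmna +/+ mice. All 10 Lmna F/F mice were below all 11 Lmna +/+ mice. Its reads fell by 0.77 ± 0.15 on the log2 scale with Uprt and by 0.98 ± 0.22 without (edgeR, adjusted p = 0.0034 and 0.0081). The first call held with any 1 library left out (adjusted p up to 0.017). Without mice 1 and 2 of the Lmna F/F group, the value without Uprt was -0.88 with an adjusted p of 0.085 in edgeR. Its T>C share did not pass the test in any fit, with medians of 7.49% in Lmna F/F mice and 6.51% in Lmna +/+ mice with Uprt. Without Uprt the order was the other way, with 3.64 to 7.77% in Lmna F/F mice (median 5.02%) and 8.29 to 13.6% in Lmna +/+ mice (median 9.39%), ranges that did not overlap. The depth behind the shares was 86 to 253 reads a library in Lmna F/F mice and 149 to 383 in Lmna +/+ mice.

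**Figure D1:**
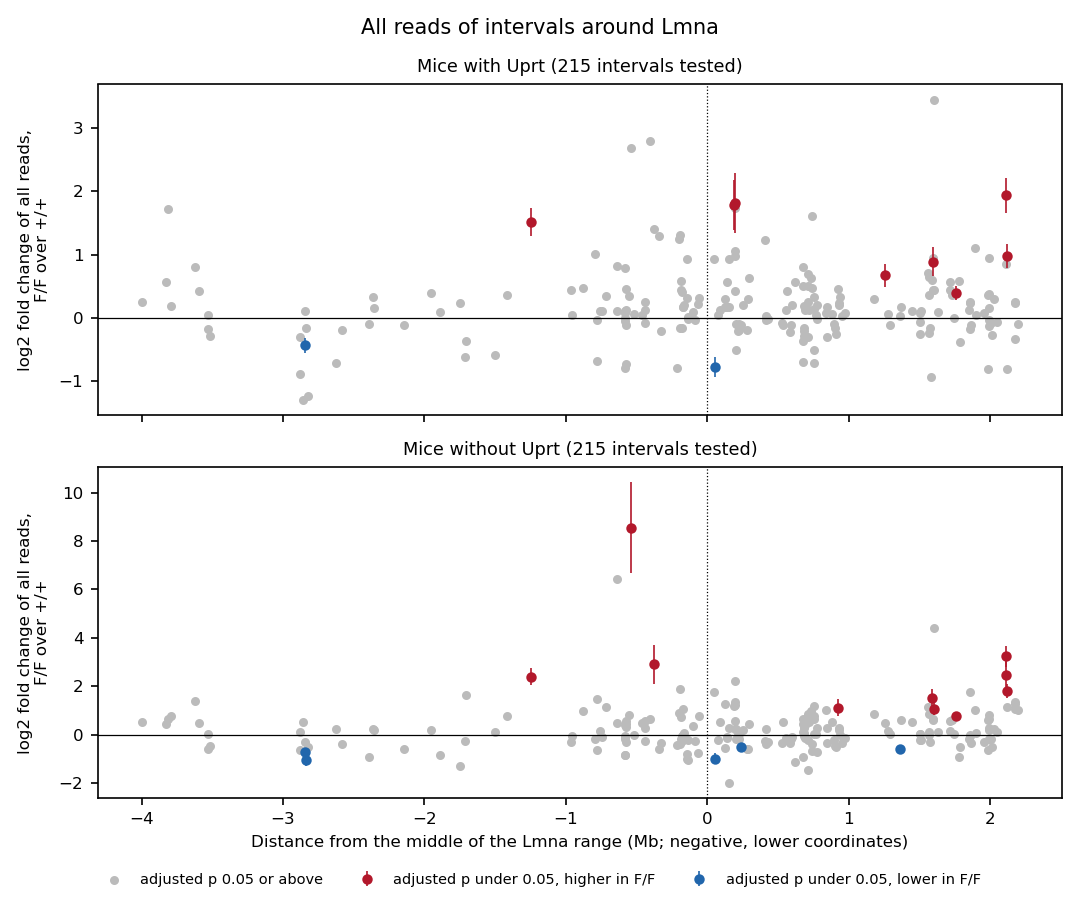
Log2 fold change of all reads, Lmna F/F over +/+, for the 215 tested flanking intervals by signed distance from the middle of the Lmna stretch in Mb, in mice with Uprt (top) and without (bottom). Grey points did not pass adjusted p 0.05, and coloured points did, with bars of 1 SE. The 10 called with Uprt and the 15 called without lie at several distances on both sides of Lmna.

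Over the whole flank, all reads of 10 of the 215 tested intervals differed with Uprt, 8 higher and 2 lower in Lmna F/F (4.65%; edgeR, adjusted p under 0.05 over 31327 intervals). The background was 2.56% of 1560 tested intervals on the rest of chromosome 3 and 2.45% of all intervals tested. Higher calls alone made up 1.99% of the rest of chromosome 3 and 2.19% of all intervals, and lower calls 0.577% and 0.265%. Without Uprt, 15 differed, 10 higher and 5 lower (6.98%), against 4.42% on the rest of chromosome 3 and 5.17% of all intervals. There, higher calls made up 2.88% of the rest of chromosome 3 and 3.46% of all intervals, and lower calls 1.54% and 1.72%. The count of 15 fell to 3, all higher, without mice 1 and 2 of the Lmna F/F group, and to 0 of 188 when the fit held only the 7 libraries without Uprt (34 at an unadjusted p under 0.05). The shares of all intervals called in these reduced fits are not given here. The falls therefore cannot be read as particular to the flank. The +/+ group without Uprt held males only, so its sex term rests on the other groups.

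The calls in mice with Uprt were spread over distance as follows. Under 0.5 Mb from Lmna, 2 of 57 tested intervals were higher and 1 was lower in Lmna F/F with Uprt. The 2 higher ones lay at 192 and 198 kb and averaged under 1 CPM over all mice. In Lmna +/+ mice with Uprt they held 2 to 33 and 2 to 16 reads a library. Their calls with Uprt were lost under 1 and 8 of 21 omissions of 1 library. Between 0.5 and 1 Mb, 0 of 70 were called by edgeR in that comparison. From 1 to 2 Mb 4 of 54 were called, all higher, and from 2 to 3 Mb 2 of 25 were higher and 1 was lower. Over 3 Mb, 0 of 9 were called. The median log2 fold change was 0.18 under 0.5 Mb, 0.11 from 0.5 to 1 Mb, 0.17 from 1 to 2 Mb, -0.10 from 2 to 3 Mb and 0.25 beyond. Over all 215 it was 0.13, against 0.01 on the rest of chromosome 3 and 0.01 over all intervals. Without Uprt it was 0.12, against 0.02 on the rest of chromosome 3 and 0.03 over all intervals. In the same order of distance, the medians without Uprt were 0.01, 0.04, 0.19, 0.20 and 0.50. With library size alone as the scaling, the median of all intervals moved to 0.17 with Uprt and 0.18 without, and that of the flanking intervals to 0.28 in each.

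The same intervals were called in both comparisons 6 times, with the same sign each time, 4 higher and 2 lower. These were 2.79% of the 215, against a background of 1.28% on the rest of chromosome 3 and 1.57% of all intervals. They made up 60.0% of the flanking calls with Uprt and 40.0% of those without, against 64.0% and 30.4% over all intervals. The 2 comparisons use different mice but share 1 fit. A test of the difference between them called 0 of 215 flanking intervals and 0 of 31327 in all (edgeR, 18 and 2204 at an unadjusted p under 0.05). The lower pair was the interval 54.2 kb from Lmna and one at chr3:85561160-85562929, 2841 kb away. The more distant one had 15.2 to 19.8 CPM in Lmna F/F mice with Uprt and 20.3 to 27.6 CPM in Lmna +/+ mice with Uprt. Without Uprt it had 13.2, 11.5, 19.0 and 17.8 CPM in Lmna F/F mice and 24.99, 22.2 and 26.3 CPM in Lmna +/+ mice. The genotypes did not overlap over all mice, and reads fell by 0.43 ± 0.12 with Uprt and by 0.71 ± 0.17 without (edgeR, adjusted p = 0.045 and 0.012). The call with Uprt was lost under 13 of 21 omissions of 1 library, with values between -0.47 and -0.39, and with library size alone (-0.27, adjusted p = 0.20). The call without Uprt was lost without Lmna F/F mouse 1 (-0.64), Lmna +/+ mouse 1 (-0.70) or Lmna +/+ mouse 3 (-0.65) of the mice without Uprt. Without both Lmna F/F mice 1 and 2 the value was -0.47 (adjusted p = 0.37).

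**Figure D2:**
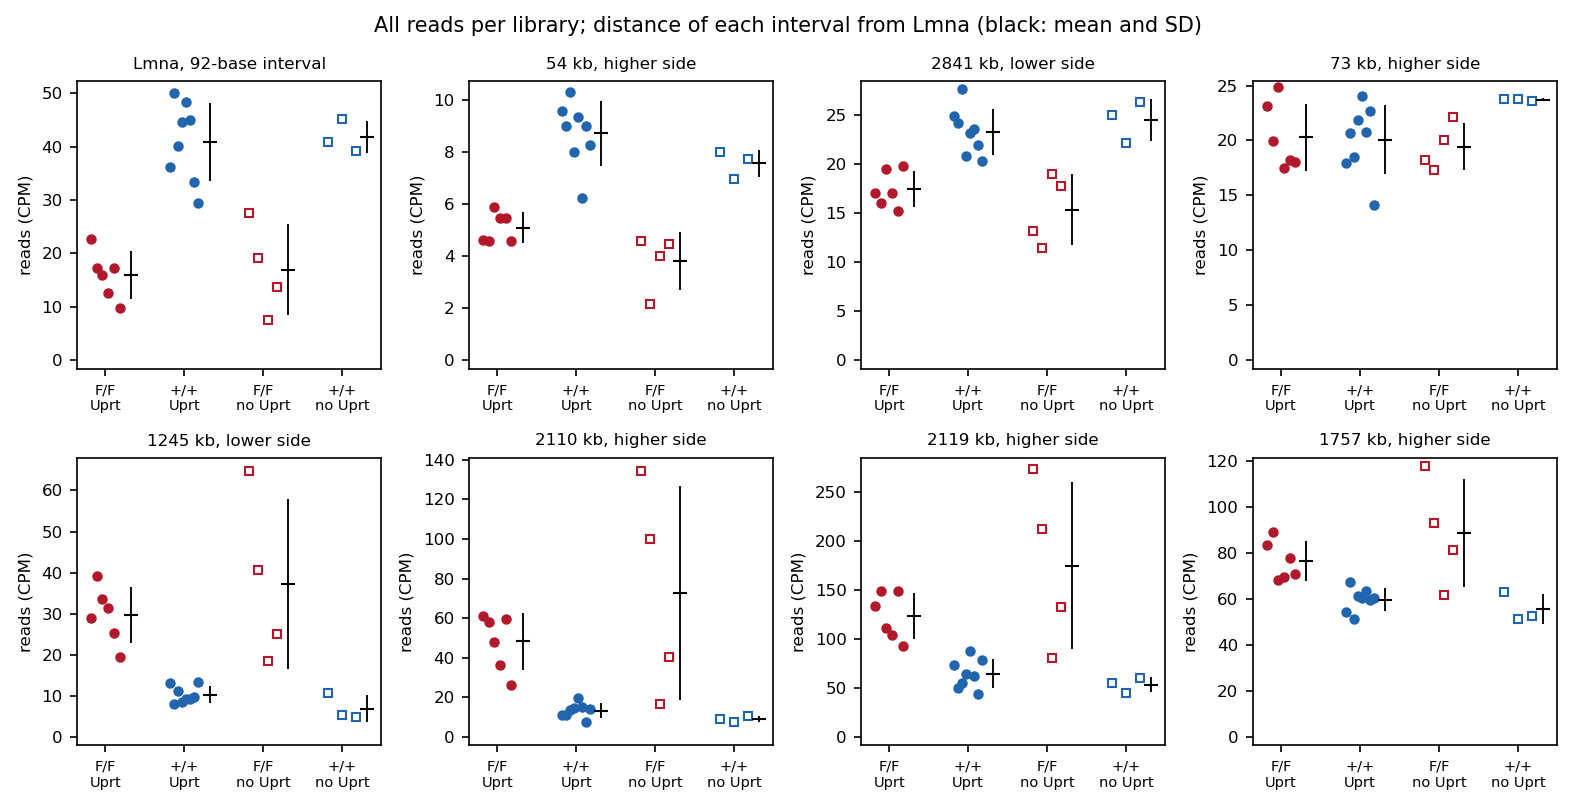
CPM of all reads per library at the 92-base Lmna interval and at 7 flanking intervals, titled by distance and side. Each point is 1 mouse, in the order Lmna F/F and +/+ with Uprt (filled), then without (open), with the mean and SD in black. Lmna F/F mice lie below +/+ mice at Lmna, at 54 kb and at 2841 kb, overlap them at 73 kb, and lie above them at 1245 kb.

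Among the intervals higher in both, the one whose genotypes did not overlap was at chr3:87158065-87158683 on the minus strand, 1245 kb on the lower-coordinate side (transcript ENSMUST00000090986.11). It had 19.3 to 39.1 CPM in Lmna F/F mice with Uprt (median 30.2) and 8.06 to 13.4 CPM in Lmna +/+ mice with Uprt (median 9.37). Without Uprt it had 64.9, 40.6, 18.4 and 25.01 CPM in Lmna F/F mice and 10.6, 5.24 and 4.68 CPM in Lmna +/+ mice. Mice 1 and 2 of the Lmna F/F group were the highest of all. Reads rose by 1.51 ± 0.22 on the log2 scale with Uprt and by 2.40 ± 0.34 without (edgeR, adjusted p = 0.00012 and 0.00017), and by 1.57 without mice 1 and 2 (adjusted p = 0.0070). With only the 7 libraries without Uprt in the fit, the value was 2.71 with an adjusted p of 0.067.

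The other intervals higher in both lay more than 1.7 Mb from Lmna on the higher-coordinate side. At chr3:90513212-90513352 on the plus strand (transcript ENSMUST00000001046.7) there were 26.1 to 61.0 CPM in Lmna F/F mice with Uprt and 7.34 to 19.5 CPM in Lmna +/+ mice with Uprt. Without Uprt there were 135, 100, 16.3 and 40.4 CPM in Lmna F/F mice and 8.85, 7.25 and 10.6 CPM in Lmna +/+ mice. The groups did not overlap within either Uprt genotype, and mice 1 and 2 were again highest. Reads rose by 1.94 ± 0.27 with Uprt and by 3.24 ± 0.44 without (edgeR, adjusted p = 8.2e-05 and 0.00015), and by 1.85 without mice 1 and 2 (adjusted p = 0.0022). About 8 kb further on, chr3:90521630-90521721 had 93.0 to 149 CPM in Lmna F/F mice with Uprt and 43.6 to 87.9 CPM in Lmna +/+ mice with Uprt. Without Uprt it had 274, 213, 80.4 and 132 CPM in Lmna F/F mice against 55.4, 44.4 and 60.2 CPM in Lmna +/+ mice. Reads rose by 0.97 ± 0.19 with Uprt and by 1.82 ± 0.29 without (edgeR, adjusted p = 0.0023 and 0.00041), and by 1.09 without mice 1 and 2 (adjusted p = 0.037).

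At the last interval higher in both, chr3:90159650-90160919, 54.4% of reads were multimapped, so their source is uncertain. It had 68.1 to 89.1 CPM in Lmna F/F mice with Uprt and 51.1 to 67.1 CPM in Lmna +/+ mice with Uprt. The log2 fold changes were 0.39 ± 0.11 with Uprt and 0.76 ± 0.16 without (edgeR, adjusted p = 0.046 and 0.0049), and the first was lost with DESeq2 size factors, without the sex term, and under 15 of 21 omissions of 1 library (adjusted p up to 0.15). The second was lost without mouse 1 of the Lmna F/F group (0.58, adjusted p = 0.064). Without mice 1 and 2 the second was 0.44 with an adjusted p of 0.32.

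Calls made in 1 comparison alone covered 13 further intervals, of which 4 averaged under 1 CPM and rest on few reads. Among the others with Uprt, the interval at 1257 kb had 4.12 to 6.12 CPM in Lmna F/F mice against 2.30 to 4.21 CPM in Lmna +/+ mice (log2 fold change 0.67 ± 0.18, edgeR, adjusted p = 0.039). That call was lost under 9 of 21 omissions of 1 library (adjusted p up to 0.095). The interval at 1596 kb had 1.75 to 3.06 CPM in Lmna F/F mice against 0.674 to 1.63 CPM in Lmna +/+ mice with Uprt (0.89 ± 0.23, adjusted p = 0.028), and its call was lost under 7 of 21 (adjusted p up to 0.14). Over all mice, the CPM ranges of the genotypes did not overlap at 4 flanking intervals, the one at 1596 kb and those at 54.2, 1245 and 2841 kb. These were 1.86% of the 215, against a background of 0.641% on the rest of chromosome 3 and 0.715% of all intervals. With Uprt the ranges did not overlap at 8 (3.72%, background 1.79% and 1.81%), and without Uprt at 41 (19.1%, background 14.8% and 15.0%). In mice without Uprt alone, 4 intervals of at least 1 CPM were higher and 3 lower, and each of the 7 lost its call without mice 1 and 2 and with only the 7 libraries in the fit. One of these, at chr3:90513047-90513192, ends 19 bases before the interval at 90513212 and may share its reads. Another, at 1591 kb, had 96.0% multimapped reads.

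The T>C share was testable at 78 flanking intervals in mice with Uprt, and 1 was called (1.28%). The test was edgeR on converted and unconverted reads, adjusted over 10479 intervals. The background was 0 of 475 on the rest of chromosome 3, where 23 had an unadjusted p under 0.05, and 0.0382% of all intervals. The median log2 odds ratio of the 78 was -0.03, against 0.03 on the rest of chromosome 3 and 0.05 over all intervals. In the distance bins used for all reads, from nearest to farthest, it was 0.04, -0.14, -0.08, 0.07 and -0.21. Without Uprt, 0 of 69 flanking intervals were called by edgeR (0 at an unadjusted p under 0.05), and 0 by the quasi-binomial model (1 unadjusted). Over all 21 mice edgeR called 0 of 97 (5 unadjusted), against a background of 0.00753% of all intervals by edgeR. The quasi-binomial model called 1 flanking interval over all mice, and its share of all intervals is not given here. The difference between mice with and without Uprt was called at 0 of 97 flanking intervals and 0 of 13273 in all (edgeR, 10 and 736 unadjusted).

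**Figure D3:**
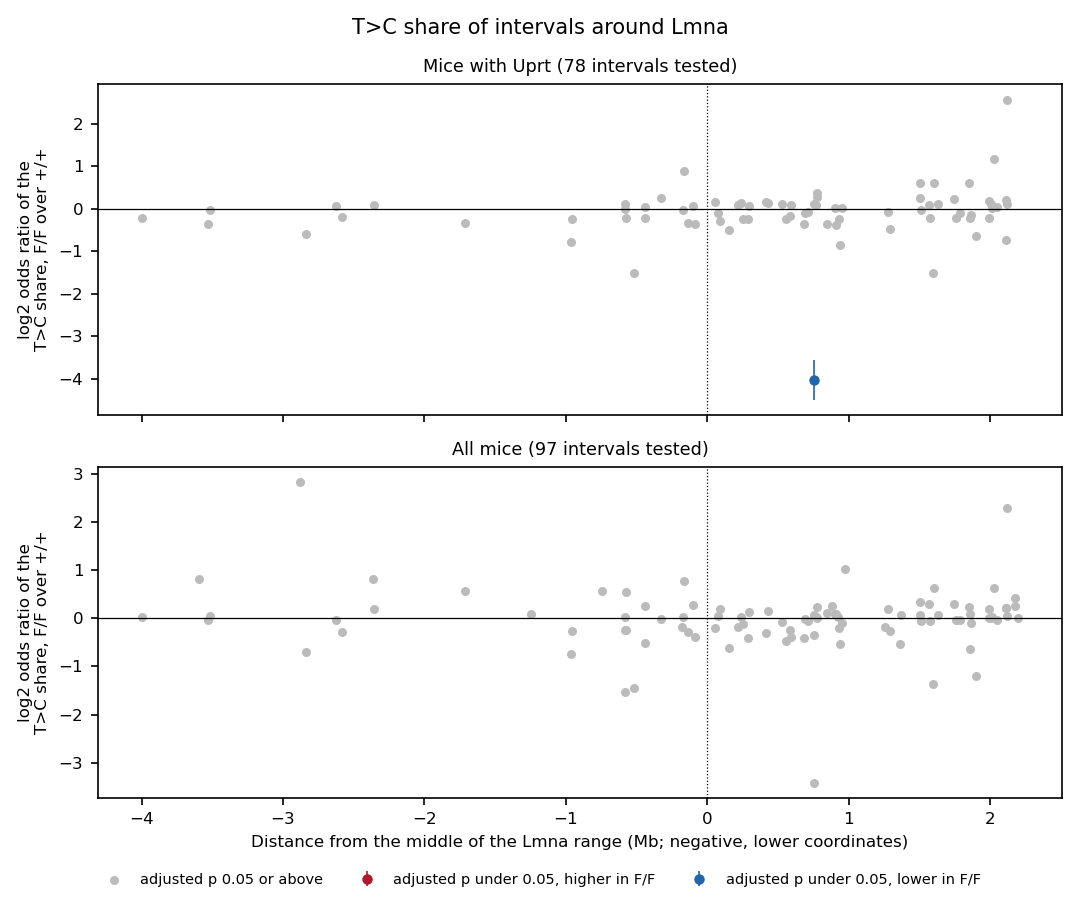
Log2 odds ratio of the T>C share, Lmna F/F over +/+, by signed distance from the middle of the Lmna stretch in Mb, in 78 flanking intervals of mice with Uprt (top) and 97 of all mice (bottom). Grey points did not pass adjusted p 0.05, and the coloured point did, with a bar of 1 SE. The single call, at -4.03, lies 753 kb from Lmna.

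The called interval was chr3:89156174-89156447 on the plus strand (transcript ENSMUST00000132818.2), 274 bases long and 753 kb from Lmna on the higher-coordinate side. With Uprt, 0.450 to 6.13% of its reads were converted in the 6 Lmna F/F mice (median 4.80%) and 30.6 to 46.8% in the 8 Lmna +/+ mice (median 39.3%). The means were 4.06 ± 2.2% in Lmna F/F mice and 38.8 ± 5.4% in Lmna +/+ mice (SD, n = 6 and 8), and the groups did not overlap. The share fell by 4.03 ± 0.47 as a log2 odds ratio (edgeR, adjusted p = 0.00062). With any 1 library left out it stayed between -4.19 and -3.72 (adjusted p up to 0.0050).

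In mice without Uprt, the shares were 1.52, 0.420, 3.76 and 2.02% in Lmna F/F mice and 36.8, 0 and 0% in Lmna +/+ mice. Lmna +/+ mouse 1, at 42 of 114 reads (95% Wilson interval 28.6 to 46.0%), thus lay within the range of the Lmna +/+ mice with Uprt. In Lmna +/+ mice 2 and 3, 0 of 125 reads each were converted, which allows a share of up to 2.40% if the limit is set at 3 reads, or 2.98% by the upper 95% Wilson limit, counting error only. Over all mice, 9 of 11 Lmna +/+ mice were at 25% or more, against 0 of 10 Lmna F/F mice. The log2 odds ratio over all mice was -3.41 ± 0.73 and did not pass in edgeR (adjusted p = 0.20). It passed without Lmna +/+ mouse 2 (-3.76, adjusted p = 0.044) or mouse 3 (-3.76, adjusted p = 0.044), and in the quasi-binomial model (-3.81, adjusted p = 0.0019).

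Neither the number of reads on this interval nor the share of its neighbour passed a test. The interval had 2.61 to 6.59 CPM in Lmna F/F mice and 2.13 to 5.66 CPM in Lmna +/+ mice with Uprt (log2 fold change 0.33 ± 0.20, edgeR, adjusted p = 0.49). Without Uprt it had 4.67, 6.01, 5.18 and 5.18 CPM in Lmna F/F mice and 3.10, 3.15 and 2.67 CPM in Lmna +/+ mice. These ranges did not overlap, as at 15.0% of all intervals without Uprt. With 1 library left out, the log2 fold change without Uprt was 0.59 to 0.72 (edgeR, adjusted p 0.14 to 0.43). Libraries gave the interval 79 to 301 reads, 7.90% of them multimapped. The summed conversions equalled the summed T>C reads in each group, 50 in Lmna F/F and 401 in Lmna +/+ mice with Uprt, and 17 in Lmna F/F and 42 in Lmna +/+ mice without Uprt. Whether these conversions came from the label or from a sequence variant was not tested. The next interval of the same transcript, at chr3:89156878-89157029, had shares of 16.1 ± 3.1% in Lmna F/F mice and 15.3 ± 1.6% in Lmna +/+ mice with Uprt, and 14.4 ± 2.7% in Lmna F/F mice and 15.1 ± 2.6% in Lmna +/+ mice without Uprt. Its log2 odds ratio with Uprt was 0.10 ± 0.17 (edgeR, adjusted p = 1.00). That neighbour held 1404 to 3768 reads a library in Lmna F/F mice and 1276 to 2780 in Lmna +/+ mice. When both intervals were summed by transcript, 0 of 77 flanking transcripts were called for T>C share with Uprt (edgeR, 3 unadjusted). The neighbour's reads dominate that sum, so it cannot show whether the called interval differed.

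**Figure D4:**
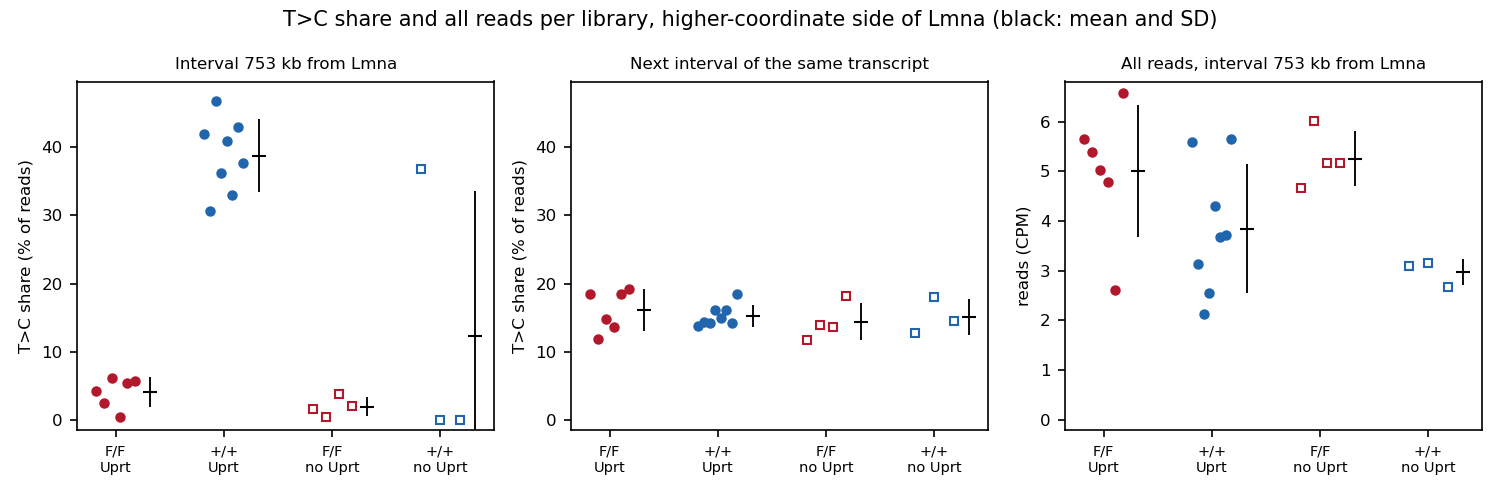
T>C share in percent of reads per library at the interval 753 kb from Lmna (left) and at the next interval of the same transcript (middle), and CPM of all reads at the first (right). Each point is 1 mouse, filled with Uprt and open without, with the mean and SD in black. At the first interval all Lmna F/F mice are at or below 6.13%, 9 Lmna +/+ mice are at 30.6% or more, and 2 are at 0.

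Counted by ranges, 111 flanking intervals had at least 20 reads in every library. With Uprt, the T>C shares of Lmna F/F and +/+ mice did not overlap at 1 of them, the interval above (0.901%), against 0 of 688 on the rest of chromosome 3 and 0.0795% of all intervals. Without Uprt they did not overlap at 9 (8.11%), 3 higher and 6 lower in Lmna F/F, against 4.36% on the rest of chromosome 3 and 4.88% of all intervals. These 9 lay between 54.2 and 1714 kb from Lmna on both sides. With all mice there were 0 such flanking intervals, against 0.0199% of all intervals. Of the 6 lower without Uprt, the interval at 217 kb had 7.46 ± 2.1% in Lmna F/F mice and 12.9 ± 3.1% in Lmna +/+ mice without Uprt. With Uprt the same interval had 20.4% on average in Lmna F/F mice and 19.8% in Lmna +/+ mice.

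High shares without Uprt and wide spreads between mice occurred at other flanking intervals too. The mean share in mice without Uprt reached 10% at 11 of 111 flanking intervals (9.91%), against 5.81% on the rest of chromosome 3 and 7.72% on the other chromosomes. The highest and lowest of all 21 mice differed by 25 percentage points or more at 8 of 111 (7.21%), against 13.7% on the rest of chromosome 3 and 14.3% on the other chromosomes. Mice of 1 group differed that much at 7 of them, and the exception lay at 2625 kb, where the widest group spanned 17.6 points. At 7 of these 8 the genotypes overlapped in mice with Uprt. At the interval 582 kb on the lower-coordinate side the shares were 23.4 to 64.5% in Lmna F/F mice and 0 to 60.5% in Lmna +/+ mice with Uprt. Without Uprt they were 67.2, 0, 0 and 46.25% in Lmna F/F mice and 26.7, 20.9 and 68.2% in Lmna +/+ mice. At the interval 2110 kb on the higher-coordinate side, starting at 90513047, they were 2.92 to 38.4% in Lmna F/F mice and 0 to 53.0% in Lmna +/+ mice with Uprt.

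**Figure D5:**
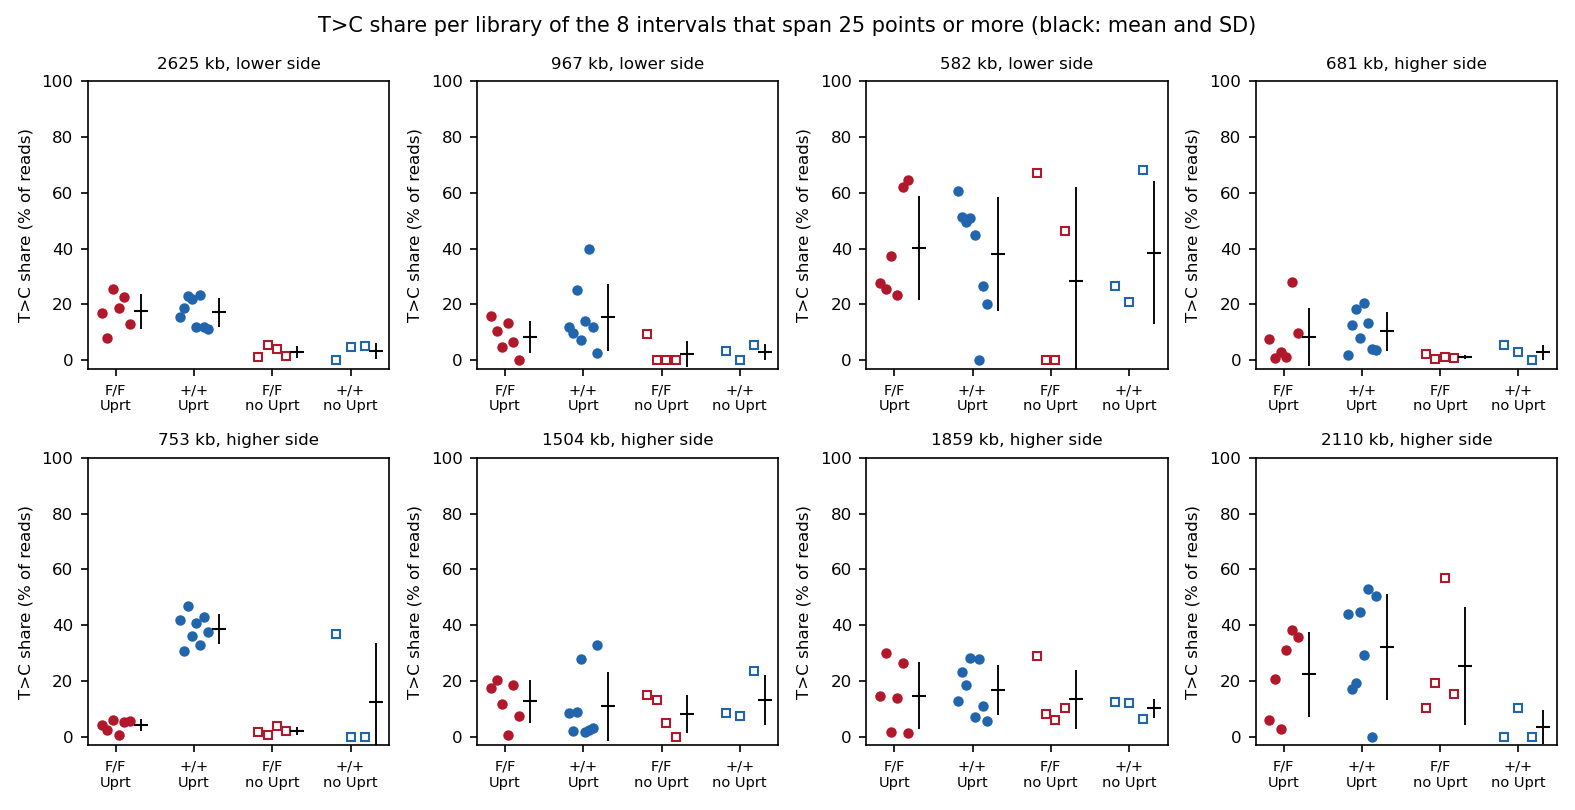
T>C share in percent of reads per library at the 8 flanking intervals whose highest and lowest of all 21 mice differ by 25 percentage points or more, titled by distance and side. Each point is 1 mouse, filled with Uprt and open without, with the mean and SD in black. At 753 kb the genotypes separate in mice with Uprt, and at the other 7 they overlap.

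The flanking interval with most reads, chr3:90418344-90418637, 2015 kb from Lmna, passed neither test. It averaged 2381 ± 281 CPM in Lmna F/F mice and 2943 ± 362 CPM in Lmna +/+ mice with Uprt (log2 fold change -0.27, edgeR, adjusted p = 0.25). Its T>C share was 1.73 ± 0.13% in Lmna F/F mice and 1.70 ± 0.20% in Lmna +/+ mice with Uprt, against 1.49 ± 0.06% in Lmna F/F mice and 1.38 ± 0.10% in Lmna +/+ mice without Uprt. At the second most read, 2358 kb from Lmna on the lower-coordinate side, 99.9% of reads were multimapped.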

How the data were processed

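Alkylated RNA was made into 3′ end libraries with a strand-keeping QuantSeq kit and read as single ends of 100 bases, per the labels' protocols. The deposited values used are counts per 3′ UTR interval and library, per the file headers: reads, T>C reads, multimapped reads, and conversions. The authors also deposited a CPM column; how it was scaled is not stated per the file headers, so it was taken as a score and not used. Per the submitters' processing notes, positions are on mm39. The sources used here do not give the aligner, the annotation release or any filter on sequence variants. Of 208307 deposited intervals, overlaps on a strand were reduced to the most read, leaving 121259. Groups followed the genotype labels.

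The test of all reads was the quasi-likelihood test of edgeR 4.0.16 (R 4.3.3), with TMM, filterByExpr at a minimum count of 10, and Benjamini-Hochberg adjustment over all intervals at a threshold of 0.05. It used 1 fit of 21 libraries with terms for the 4 groups and for sex. T>C shares were tested on converted and unconverted reads with an effect for each library. SE is the log2 value over the square root of F. The scripts were tested on simulated data. P-values measure differences against the spread between mice within groups. For all reads this spread was pooled over the 4 groups of the 1 fit. The comparison without Uprt thus also drew on the spread of the mice with Uprt. Alternatives were DESeq2 1.42.0, other scalings and filters, a quasi-binomial model (dispersions moderated by limma 3.58.1), and omitted libraries.

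The intervals and tests were chosen with earlier results of these data known. Intervals placed in the text were the 4 nearest on each side, those called with at least 1 CPM, those with T>C ranges that do not overlap, the 6 most read and those of Lmna. The wide-spread intervals and the neighbour of the called T>C interval were added after their values were seen. Gene and marker lists were not run, since no interval could be named.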

Additional observations from a re-analysis of the deposited data

Results flagged for a closer look

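Among 228 sets of values tested (41 intervals, including those of Lmna, in the groups of 4 or more mice), 13 held 1 mouse far from the rest of its group by Dixon's rule, which chance does in about 1 in 20. For all reads with Uprt in Lmna F/F mice, mouse 5 was low at the interval starting at 88228751 (65.4 CPM) and high at those starting at 88336243 (0.482 CPM) and 90006839 (34.5 CPM), and mouse 1 was high at 89999242 (3.06 CPM). In Lmna +/+ mice with Uprt, mouse 3 was high at 87860345 (0.108 CPM), mouse 6 at 88444489 (0.752 CPM) and mouse 8 at 89322779 (4.88 CPM). In Lmna F/F mice without Uprt, mouse 3 stood apart at 87822216 (104 CPM). For the T>C share with Uprt, Lmna +/+ mouse 3 was apart at 87822216 (9.05%) and mouse 1 at 89999242 (3.57%). In Lmna F/F mice without Uprt, mouse 2 was apart at the 92-base Lmna interval (2.52%), mouse 1 at 89356074 (1.11%) and mouse 4 at 90159650 (2.73%). No flanking interval differed in its Lmna effect between mice with and without Uprt by the test of that difference.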

How the results depend on the processing

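All-read calls with Uprt numbered 10 and, with 1 library left out, 5 to 11, with 5 without Lmna F/F mouse 3 and 6 without mouse 1 or mouse 2 of that group. Without the low-count filter there were 17. DESeq2 called 15 with Uprt and 21 without. Without Uprt there were 15, and 4 to 21 with 1 library left out. There were 4 without Lmna F/F mouse 1 (all among the 15), 9 without Lmna +/+ mouse 1 (8 among the 15) and 9 without Lmna +/+ mouse 2 (all among the 15). Only the compared groups in the fit gave 0, and leaving out Lmna F/F mice 1 and 2, an alternative added after seeing the data, gave 3. For these counts of all-read calls, the shares of all intervals called in the same fits are not given. The counts under alternatives are therefore not set against a background. With library size alone, 92.9% of calls with Uprt were higher (80.0% with TMM), and 82.4% without Uprt (66.7% with TMM); over all intervals without Uprt it was 84.6% (66.8% with TMM). T>C calls with Uprt were 1 under each omission of 1 library and 0 with intervals summed by transcript, where the deeper neighbour dominates. Without Uprt they were 0 under each omission, and over all mice 0 to 1, with 1 without Lmna +/+ mouse 2 or mouse 3 of the group without Uprt and 1 in the quasi-binomial model. Separate T>C ranges numbered 1 to 2 with Uprt (2 without Lmna +/+ mouse 1), 11 to 20 without Uprt against 9 with all 7 mice, and 0 over all mice. Leaving a mouse out can only narrow the ranges, so these counts could stay or rise but not fall. For T>C calls and ranges under alternatives, the shares of all intervals are not given either, so these counts have no background. No called value changed sign under the alternatives run, and the cause of the lost calls was not tested. No paired analysis was possible because the labels give mouse numbers that no 2 groups share. Of the 215 intervals with enough reads, only 120 averaged at least 1 CPM, so differences at the rest rest on few reads, and T>C shares were testable at 78 with Uprt.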
